A study of Homo sapiens with 9 samples.

Results

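The genes described here are 10 components that sense unfolded protein in the endoplasmic reticulum (ER), or that carry the signal to the nucleus. They are the sensors EIF2AK3 (PERK), ERN1 (IRE1), ATF6 and ATF6B, the IRE1 target XBP1, the proteases MBTPS1 and MBTPS2, and the membrane-bound transcription factors CREB3, CREB3L1 and CREB3L2. A probe set, the group of short probes that measures 1 transcript on an Affymetrix array, was taken where its annotation named only 1 of these genes. This gave 25 probe sets of the 54613 on the array that are not controls, and all 10 genes had at least 1, of 19775 genes named in this way. After dim probe sets were left out, 22 of the 25 were tested among 32768. The brightest probe set of a gene, by mean log2 signal over all arrays, stood for that gene, and all 10 of these representatives were tested.

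The arrays measured RNA from HEK293 cells, an established line derived from human embryonic kidney. Cells were transiently transfected with surfactant protein C (SP-C) lacking exon 4 (Ex4, 3 arrays), with SP-C carrying the L188Q substitution (LQ, 3 arrays), or with the wild-type protein (WT, 3 arrays). SP-C is a small hydrophobic protein that alveolar type II cells of the lung make as a larger precursor in the ER, and the question was how cells respond to its misfolded forms. All 3 groups therefore overexpressed an SP-C form, the WT group included, and no untransfected group was analysed here. Whether the 3 arrays of a group came from separate transfections is not stated, so the p-values below reflect the spread between arrays alone, and that spread may be technical. The vector, its promoter, the time after transfection and the share of transfected cells are not given in the sources used here. Whole cultures were measured, so fewer cells of a type and less RNA per cell cannot be told apart.

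In the unfolded protein response, PERK is a kinase that phosphorylates the initiation factor eIF2 and so lowers translation, while ATF4 and its targets are made. IRE1 is a kinase and nuclease that splices the XBP1 transcript to a form coding for an active transcription factor, and it also cleaves other ER-bound transcripts. ATF6 and the CREB3 family are made as ER membrane proteins, travel to the Golgi and are cut there by the site-1 protease (MBTPS1) and the site-2 protease (MBTPS2), which frees their transcription factor domain. Apart from the cleavage of other transcripts, these steps act on proteins or on splicing, and an array of transcript levels does not see those directly.

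Both mutants differed from WT across whole arrays, which touches every value below. The median signal was 316.1 to 434.3 in Ex4 and 303.9 to 371.8 in LQ, against 506.4 to 524.4 in WT, at an almost equal trimmed mean (both mutants together against WT, two-sided exact permutation p = 0.0119, the smallest that 84 splits can give). The ratio of 3' to 5' signal of GAPDH, a sign of RNA integrity, was 1.12 ± 0.14 in Ex4 and 1.07 ± 0.016 in LQ, against 1.31 ± 0.11 in WT (SD, n = 3 each). The same ratio of ACTB went the other way in its means. It was 1.35 ± 0.18 in Ex4 and 1.18 ± 0.041 in LQ, against 1.13 ± 0.12 in WT. Ex4 replicate 1 stood apart from the other Ex4 arrays, with a mean correlation across tested probe sets of 0.911 to the WT arrays and 0.906 to its own group. The other Ex4 arrays had 0.926 and 0.927 to their own group. WT replicate 1 had the lowest correlation to its own group of all arrays, at 0.892, and WT replicates 2 and 3 had 0.903 and 0.911. The transfected gene SFTPC was read by 5 probe sets, which did not agree on Ex4. On 2 of them the signal was 97629.7 to 169241 and 97702.3 to 172184 in Ex4, overlapping LQ, at 108963 to 132058 and 118126 to 129027, against 173160 to 261955 and 160706 to 231145 in WT. On 2 others Ex4 was far lower, at 19159.6 to 24665.9 and 28.7 to 914.4, where replicate 1 had 914.4 and the others 39.1 and 28.7. LQ had 107088 to 129022 and 108292 to 126185 on these, against 169587 to 239917 and 158962 to 239964 in WT. The remaining probe set had 734.2 to 6042.6 over all arrays, above the median of each array. All 7 HEK293 markers looked at, among them KRT8, KRT18 and VIM, lay above the array median on all 9 arrays. Of 7 alveolar type II markers with a probe set, SFTPB and LAMP3 lay above it on all 9 and SFTPD below it on all 9. Of 5 blood cell markers, CD79A lay above it on all 9 and PTPRC below it on all 9, and of 5 fibroblast markers COL1A1 lay above and LUM and PDGFRA below. For the HEK293 markers the summed signal was 142778 to 152944 in Ex4 and 149412 to 161373 in LQ, against 151954 to 193272 in WT. VIM makes up most of this sum, with means of 80330 in Ex4 and 85405 in LQ, against 100615 in WT. The dimmest, PAX2, had means of 650 in Ex4 and 491 in LQ, against 2120 in WT. In each mutant 1 of the 7 had a positive change, and 1 passed limma's test as lower in LQ, where 3.63% of all genes did. The summed signal of the alveolar markers was 3918 to 4414 in Ex4 and 4515 to 5293 in LQ, against 4360 to 7115 in WT. The summed signal of the blood cell markers was 1538 to 1671 in Ex4 and 1315 to 1555 in LQ, against 2319 to 2975 in WT. That of the fibroblast markers was 4466 to 5985 in Ex4 and 3183 to 4274 in LQ, against 6435 to 7643 in WT. The part of these differences in the results below was not tested.

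XBP1, EIF2AK3, MBTPS1 and CREB3L2 are shown by the RefSeq promoter windows of GRCh38.p14, 250 bases before to 50 bases after the annotated start, because their promoters hold the motifs of this pathway or because their transcripts passed a test. The ER stress response element (ERSE) is CCAAT, any 9 bases and CCACG, and it is bound by ATF6 and XBP1 together with the factor NF-Y. Capitals mark CCAAT and CCACG on either strand, and the cAMP response element TGACGTCA. The windows lie on the minus strand at chr22:28800520-28800819 (XBP1), chr2:88627415-88627714 (EIF2AK3), chr16:84116893-84117192 (MBTPS1) and chr7:138002037-138002336 (CREB3L2).
XBP1: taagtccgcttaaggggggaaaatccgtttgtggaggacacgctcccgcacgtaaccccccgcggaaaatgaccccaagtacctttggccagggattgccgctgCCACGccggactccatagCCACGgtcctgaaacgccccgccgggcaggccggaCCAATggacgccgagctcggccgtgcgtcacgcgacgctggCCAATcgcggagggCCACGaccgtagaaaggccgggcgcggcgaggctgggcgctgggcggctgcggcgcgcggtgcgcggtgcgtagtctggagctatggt
EIF2AK3: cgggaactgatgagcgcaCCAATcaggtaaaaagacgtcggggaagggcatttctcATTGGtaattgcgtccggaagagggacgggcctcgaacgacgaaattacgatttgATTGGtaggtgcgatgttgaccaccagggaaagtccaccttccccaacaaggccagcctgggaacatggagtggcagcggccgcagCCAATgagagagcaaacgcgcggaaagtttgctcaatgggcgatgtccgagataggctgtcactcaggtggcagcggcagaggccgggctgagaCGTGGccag
MBTPS1: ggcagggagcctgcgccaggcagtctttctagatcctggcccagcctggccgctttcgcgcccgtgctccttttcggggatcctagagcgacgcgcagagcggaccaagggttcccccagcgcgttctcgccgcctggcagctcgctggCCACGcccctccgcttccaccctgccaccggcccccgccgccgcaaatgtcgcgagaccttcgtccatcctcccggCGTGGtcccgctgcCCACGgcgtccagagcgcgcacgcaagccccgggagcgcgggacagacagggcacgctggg
CREB3L2: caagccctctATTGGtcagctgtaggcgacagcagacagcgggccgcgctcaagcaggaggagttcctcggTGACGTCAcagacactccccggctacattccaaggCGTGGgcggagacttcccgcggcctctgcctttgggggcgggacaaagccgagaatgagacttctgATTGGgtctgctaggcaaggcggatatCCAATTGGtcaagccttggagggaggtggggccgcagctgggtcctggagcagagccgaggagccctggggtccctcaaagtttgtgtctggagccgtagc

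Searched on both strands, a whole ERSE was in 27 of 34943 promoter windows of this length in the table (0.0773%). Of the 10 genes, all of which had a window, only XBP1 held one, from 52 to 34 bases before the start of the printed window. XBP1 had another window, at another annotated start, which held no whole ERSE. HSPA5, the ER chaperone BiP, which holds the sensors inactive and is a classical target of ATF6, held one from 66 to 48 bases before its start (window at chr9:125241294-125241593, minus strand). Both elements are printed on the strand of the gene, with their fixed bases in capitals.
XBP1 element: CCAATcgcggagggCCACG
HSPA5 element: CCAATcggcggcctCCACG
EIF2AK3 had CCAAT in 4 places and CCACG once, after its start, and the pieces did not form a whole element. MBTPS1 had CCACG in 3 places and no CCAAT. CREB3L2 held TGACGTCA from 179 to 172 bases before the start of its printed window, a motif found in 642 of the 34943 windows (1.84%). Its other window, at another annotated start, did not hold this motif. CCACG alone was in 38.1% and CCAAT alone in 34.6% of all windows, and each was in the windows of 5 of the 10 genes. TGACGTGG, a core that ATF6 and XBP1 bind, was in 0.730% of all windows and in none of the 10 genes' windows. ERSE-II, which is ATTGG, 1 base and CCACG, was in 0.0544% and also in none of theirs. A match says only that these letters are present, and no binding was measured.

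At the level of transcripts, few of the 10 genes passed a test between the groups. In Ex4 against WT none of the 10 representatives passed limma's test at an adjusted p of 0.05, where 0% of the 14018 genes tested did. In LQ against WT none of the 10 passed, where 7.32% of all genes did. At an unadjusted p under 0.05 there were 5 of 10 in Ex4, against 27.2% of all genes, and 3 of 10 in LQ, against 30.6% of all genes. The 5 in Ex4 included CREB3L1, whose mean signal in Ex4 was under the limit for dim probe sets. With both mutants together against WT, a comparison with more arrays, EIF2AK3 rose, where 6.22% of all genes passed higher, and MBTPS1 fell, where 6.72% passed lower, so 2 of 10 passed where 12.9% of all genes did. Between the mutants, none of the 10 passed for LQ against Ex4, and 0 had an unadjusted p under 0.05, against 4.19% of all genes. The median log2 change of the 10 was -0.15 in Ex4 and -0.12 in LQ, near the medians of all genes, which were -0.08 and -0.09. Positive changes were seen in 4 of 10 in each mutant.

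**Figure D1:**
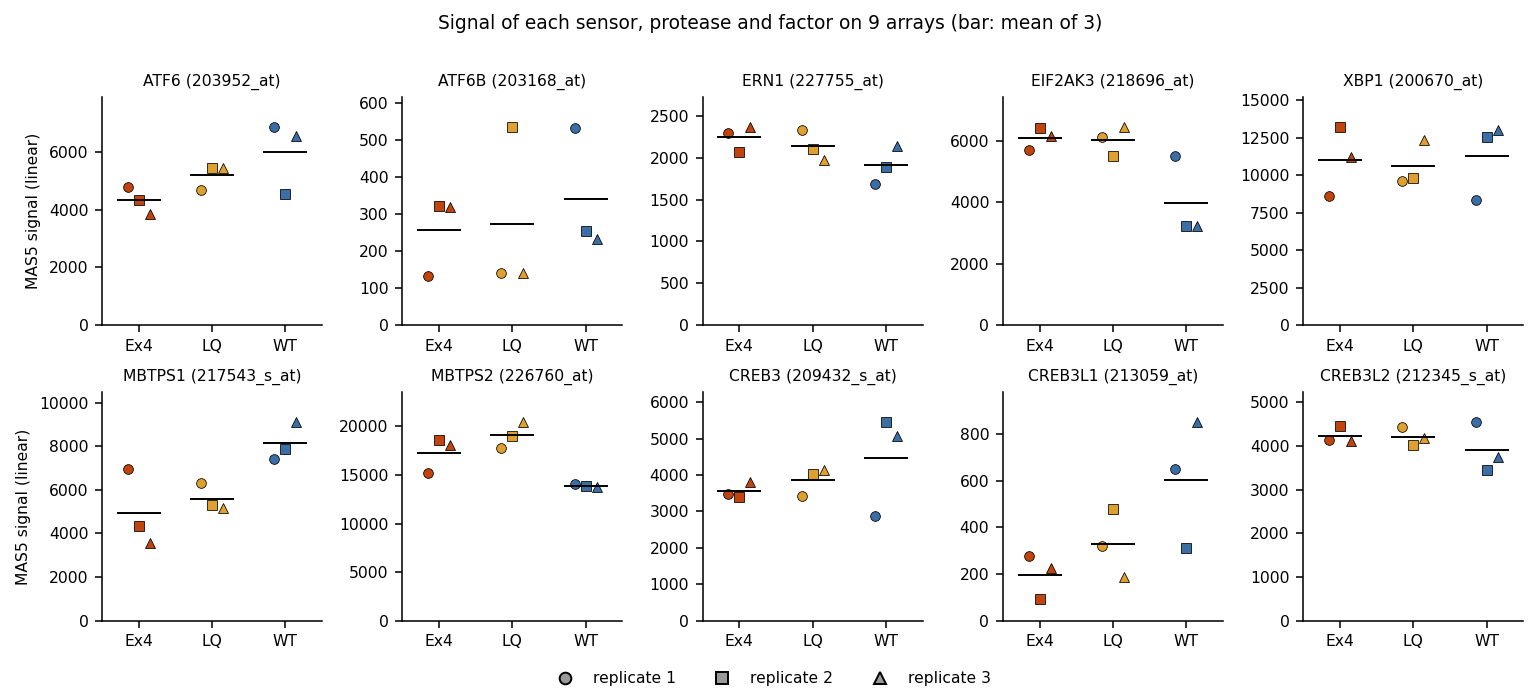
Signal of the representative probe set of each of the 10 genes on every array, on a linear axis of deposited signal that starts at 0, with Ex4, LQ and WT from left to right (points are arrays, their shape gives the replicate number, and bars are group means, n = 3 each). EIF2AK3 and MBTPS2 sit higher in both mutants except for WT replicate 1 of EIF2AK3, at 5514.1, MBTPS1 sits lower in both, and XBP1 overlaps in all 3 groups.

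EIF2AK3 encodes PERK, the sensor kinase of eIF2. Its signal was 5691.5, 6395.9 and 6150.7 in Ex4 and 6131.9, 5485.5 and 6450.3 in LQ, against 5514.1, 3235.2 and 3216.4 in WT. All 3 Ex4 arrays were above all WT arrays, while LQ replicate 2 lay just under WT replicate 1, the highest of its group. The log2 change was 0.65 ± 0.21 in Ex4 (SE, limma adjusted p = 0.107) and 0.64 ± 0.21 in LQ (adjusted p = 0.0782), and neither passed. With both mutants together it was 0.64 ± 0.18, a 1.56-fold rise that passed (adjusted p = 0.0430, 95% interval 0.25 to 1.04). LQ and Ex4 had nearly the same level, with a log2 difference of -0.02 and a 95% interval of -0.47 to 0.44.

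Without WT replicate 1 the log2 change was 0.91 in Ex4 (adjusted p = 0.00588) and 0.89 in LQ (adjusted p = 0.00537), so both passed. The call with both mutants together was kept when Ex4 replicate 1 or WT replicate 1 was left out, was lost when any of the other 7 arrays was, and was lost too after quantile normalization (0.54, adjusted p = 0.0874), with no filter (adjusted p = 0.0513) and without the variance trend (adjusted p = 0.0826). EIF2AK3 passed in each mutant with array weights (adjusted p = 0.0152 in Ex4 and 0.00603 in LQ) and after centring each array on its median. Centring raised the change to 1.14 in Ex4 and 1.22 in LQ, and the median of all genes was then 0.41 in Ex4 and 0.49 in LQ. The only other probe set that names EIF2AK3 was too dim to be tested, at 14.8 to 103.8 in Ex4, 22.3 to 61.7 in LQ and 64.7 to 178.0 in WT.

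ERN1 encodes IRE1, the nuclease that splices XBP1. Its signal was 2297.4, 2071.5 and 2369.1 in Ex4 and 2331.5, 2109.9 and 1968.7 in LQ, against 1687.9, 1889.5 and 2144.5 in WT. The groups overlapped, with WT replicate 3 inside the range of both mutants. The fitted log2 change was 0.24 ± 0.19 in Ex4 (limma adjusted p = 0.449) and 0.17 ± 0.19 in LQ (adjusted p = 0.583). The 95% intervals, -0.17 to 0.65 and -0.24 to 0.57, leave room for a change in either direction. After median centring ERN1 passed in both mutants, at 0.73 in Ex4 (adjusted p = 0.0450) and 0.75 in LQ (adjusted p = 0.0283). A second probe set had -0.19 in Ex4 and 0.21 in LQ, and the last was too dim to be tested.

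ATF6 encodes the membrane-bound factor that is cut in the Golgi. On its representative probe set the signal was 4794.2, 4351.3 and 3839.7 in Ex4 and 4667.7, 5461.8 and 5439.3 in LQ, against 6871.4, 4554.4 and 6559.8 in WT. WT replicate 2 lay among the mutant arrays, while WT replicates 1 and 3 were above all of them. In log2 terms the change was -0.45 ± 0.19 in Ex4 (limma adjusted p = 0.173) and -0.19 ± 0.19 in LQ (adjusted p = 0.535), and after median centring these were 0.04 and 0.39.

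ATF6 has 3 other tested probe sets, and they did not follow the representative. The next brightest gave 2659.2, 4271.7 and 3070.9 in Ex4 and 2685.8, 3429.9 and 3496.3 in LQ, against 2673.1, 2712.9 and 2511.1 in WT. Here the mutant arrays lay at or above WT, and only Ex4 replicate 1 and LQ replicate 1 fell within the WT range. Its log2 change was 0.31 ± 0.21 in Ex4 (limma adjusted p = 0.368) and 0.27 ± 0.21 in LQ (adjusted p = 0.403). The other two had 0.20 and 0.03 in Ex4, and 0.05 and -0.21 in LQ. None of the 4 passed in any comparison.

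ATF6B encodes a relative of ATF6 with a weaker activation domain. Its 3 probe sets were all dim. The representative lay below the array median on 6 of 9 arrays, with 132.5, 320.9 and 319.4 in Ex4 and 141.9, 534.8 and 141.6 in LQ, against 530.7, 253.5 and 233.1 in WT, and the groups overlapped. Its log2 change was -0.38 ± 0.62 in Ex4 (limma adjusted p = 0.737) and -0.47 ± 0.62 in LQ (adjusted p = 0.639), and it was 0.12 in each after quantile normalization and 0.11 in each after median centring.

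On the second ATF6B probe set the signal was 487.8, 243.3 and 56.2 in Ex4 and 165.7, 106.4 and 49.5 in LQ, against 562.8, 1411.0 and 550.4 in WT. Every mutant array lay below every WT array. The log2 change was -1.88 ± 0.72 in Ex4 (limma adjusted p = 0.145), which did not pass, and -2.78 ± 0.72 in LQ (adjusted p = 0.0445), which did. With both mutants together it was -2.33 ± 0.63 (adjusted p = 0.0385). In LQ against WT, 6.81% of all tested probe sets passed in either direction and 3.72% passed lower. This probe set passed the filter on dim signals only through the WT arrays, since its mean log2 signal was 7.72 in Ex4 and 6.82 in LQ, both under the filter of 7.89, against 9.60 in WT. A probe set kept in this way had to differ, so the call is given as a description and nothing is read from it. All 3 LQ arrays and 2 of 3 Ex4 arrays lay below their array median there, so the size of the fall is not measured. The LQ call was kept without Ex4 replicate 1, Ex4 replicate 3 or WT replicate 1 and lost without any of the other 6 arrays, over a range of -3.12 to -2.34, and was lost after quantile normalization (adjusted p = 0.0791), with no filter (adjusted p = 0.0547) and without the variance trend (adjusted p = 0.0677). The last probe set had -0.84 in Ex4 (adjusted p = 0.509) and -2.05 in LQ (adjusted p = 0.102), with all 3 LQ arrays, at 50.4 to 275.4, below the WT arrays at 334.2 to 601.1.

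XBP1 is the transcript spliced by IRE1 and is itself known as a target of ATF6. Its signal was 8589.8, 13217.4 and 11223.6 in Ex4 and 9624.6, 9831.3 and 12351.9 in LQ, against 8331.6, 12554.0 and 13024.9 in WT. The 3 groups covered the same range, and replicate 1 was the lowest array of each. The log2 change was -0.03 ± 0.21 in Ex4 (limma adjusted p = 0.942, 95% interval -0.50 to 0.43) and -0.07 ± 0.21 in LQ (adjusted p = 0.843, 95% interval -0.54 to 0.39). Median centring turned these to 0.46 and 0.51 without a call. HSPA5, which holds the same kind of element, had a signal of 47913.2, 58232.6 and 62874.5 in Ex4 and 57613.3, 54506.7 and 53481.5 in LQ, against 40365.0, 32955.9 and 25686.8 in WT. All 6 mutant arrays were above all WT arrays. Its log2 change was 0.79 in Ex4 (limma adjusted p = 0.0769) and 0.77 in LQ (adjusted p = 0.0327), so only the LQ change passed. The size was alike in both mutants, and 0% of all genes passed in Ex4. With both mutants together HSPA5 rose by 0.78 (adjusted p = 0.0207). The difference between HSPA5 and XBP1 was not tested.

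A second, dimmer XBP1 probe set read otherwise. It gave 882.2, 396.1 and 828.3 in Ex4 and 593.9, 540.8 and 721.6 in LQ, against 1528.8, 959.6 and 1001.7 in WT. Every mutant array was below every WT array, with a log2 change of -0.77 ± 0.35 in Ex4 (limma adjusted p = 0.195) and -0.87 ± 0.35 in LQ (adjusted p = 0.123). With both mutants together it was -0.82 ± 0.30 (adjusted p = 0.0850) and did not pass. The table gives no value for the spliced as against the unspliced transcript, so the output of IRE1 was not measured here.

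MBTPS1 encodes the site-1 protease, which makes the first cut in ATF6 and also acts on the sterol regulators SREBF1 and SREBF2. Its representative signal was 6945.9, 4333.6 and 3570.0 in Ex4 and 6333.1, 5297.8 and 5163.0 in LQ, against 7443.3, 7862.0 and 9110.7 in WT. All 6 mutant arrays were below all 3 WT arrays, and Ex4 replicate 1 was the mutant array nearest to WT. The log2 change was -0.77 ± 0.23 in Ex4 (limma adjusted p = 0.0920) and -0.54 ± 0.23 in LQ (adjusted p = 0.140), and neither passed. With both mutants together it was -0.65 ± 0.20 and passed at the edge of the threshold (adjusted p = 0.0497). Without Ex4 replicate 1 the change in Ex4 was -1.04 and passed (adjusted p = 0.00719). Left out in turn, Ex4 replicate 1 and WT replicate 1 were the only arrays without which the call with both mutants together was kept, and median centring brought it to -0.12 (adjusted p = 0.664). That call was lost as well with a pseudocount of 1 (adjusted p = 0.0515), with no filter (adjusted p = 0.0583) and without the variance trend (adjusted p = 0.0956). In LQ MBTPS1 passed without Ex4 replicate 1 (adjusted p = 0.0496), and with array weights it passed in Ex4 (-0.98, adjusted p = 0.0124) and in LQ (-0.62, adjusted p = 0.0228).

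The other MBTPS1 probe set did not follow it. It gave 2991.8, 5557.1 and 5230.6 in Ex4 and 3024.1, 5227.3 and 5170.0 in LQ, against 3891.1, 4547.4 and 3157.8 in WT. Replicates 2 and 3 of both mutants were above all WT arrays and replicate 1 of both was below them. Its log2 change was 0.21 ± 0.28 in Ex4 (limma adjusted p = 0.665), 0.18 ± 0.28 in LQ (adjusted p = 0.693) and 0.20 ± 0.24 with both mutants together (adjusted p = 0.597). Across the 9 arrays, which share their groups and scaling, the log2 signals of both MBTPS1 probe sets had a Pearson correlation of -0.71. With the mean of both probe sets in place of the brighter one, the change of MBTPS1 with both mutants together was -0.23 (adjusted p = 0.202). The identifier of the representative carries the suffix (_s_at) that the array's maker gives to probe sets able to match more than 1 transcript.

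**Figure D2:**
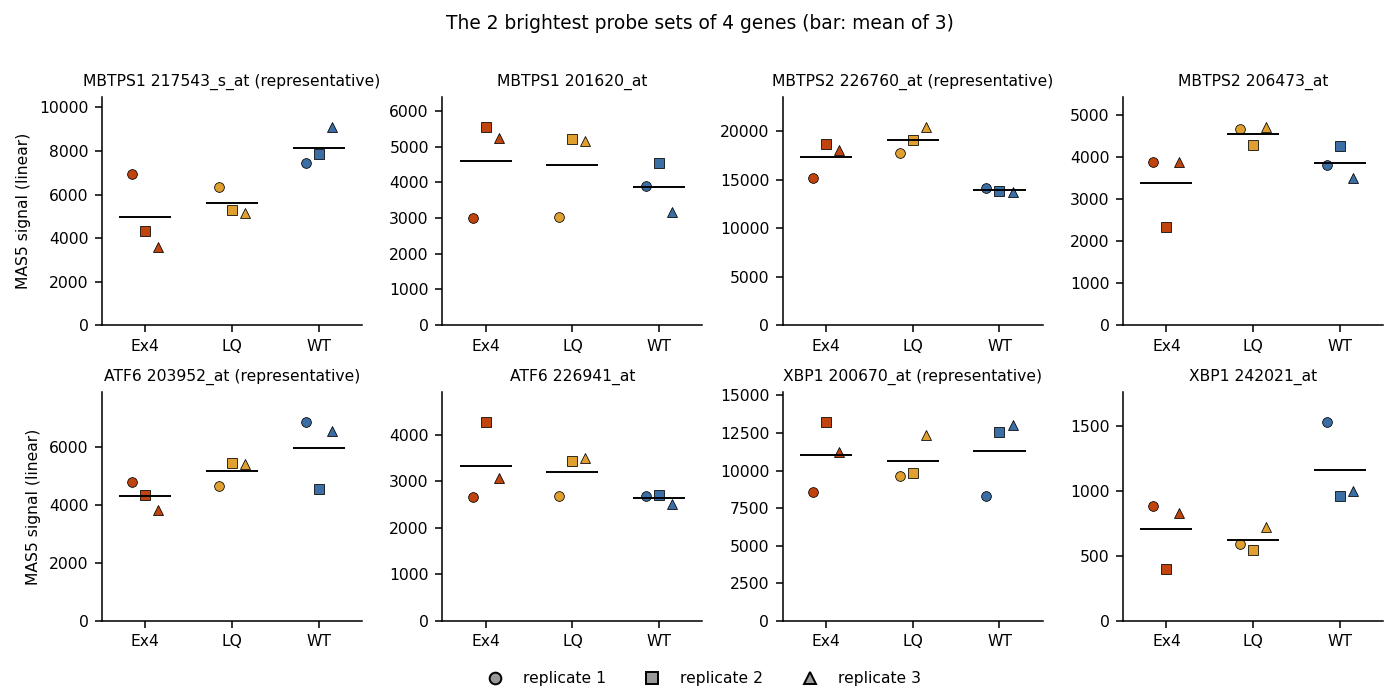
Linear signal on each of the 9 arrays, on axes that start at 0, for the brightest and the next brightest probe set of MBTPS1, MBTPS2, ATF6 and XBP1 (points are arrays with Ex4, LQ and WT from left to right, bars are group means, n = 3 each). On the representative of MBTPS1 all mutant arrays lie below WT, and on the other MBTPS1 probe set replicates 2 and 3 of both mutants lie above WT.

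MBTPS2 encodes the site-2 protease, which cuts within the membrane after MBTPS1. Its signal was 15215.4, 18653.7 and 18072.7 in Ex4 and 17735.1, 19042.2 and 20440.0 in LQ, against 14119.1, 13865.2 and 13721.2 in WT. All 6 mutant arrays were above all 3 WT arrays, which lay close together, and Ex4 replicate 1 was again the mutant array nearest to WT. In log2 terms the change was 0.31 ± 0.14 in Ex4 (limma adjusted p = 0.191), 0.45 ± 0.14 in LQ (adjusted p = 0.0646) and 0.38 ± 0.12 with both mutants together (adjusted p = 0.0563), and none passed. MBTPS2 passed in LQ without Ex4 replicate 1 (adjusted p = 0.0413) and without WT replicate 1 (adjusted p = 0.0471), and in both mutants together in the same 2 fits. It also passed in LQ with array weights (adjusted p = 0.0134) and with only the arrays compared (adjusted p = 0.0471). After median centring it passed at 0.80 in Ex4 (adjusted p = 0.0316) and at 1.04 in LQ (adjusted p = 0.00669). The change with both mutants together also passed with a filter at percentile 60 (adjusted p = 0.0499), array weights (adjusted p = 0.0172) and centring (adjusted p = 0.00465). With the mean of its probe sets the change was 0.04 in Ex4 and 0.35 in LQ, without a call. On a second probe set of MBTPS2 the signal was 4658.8, 4296.8 and 4717.3 in LQ, against 3891.8, 2334.8 and 3886.5 in Ex4, and the WT arrays had 3799.2, 4262.5 and 3488.6. Against WT this probe set had a log2 change of -0.22 in Ex4 (limma adjusted p = 0.532) and 0.25 in LQ (adjusted p = 0.459). With both mutants together it had 0.01 (adjusted p = 0.975). All LQ arrays were above all Ex4 arrays there, as for 5.62% of all tested probe sets, with a log2 difference of 0.47 ± 0.21 and an unadjusted limma p of 0.0456 that did not hold after adjustment over all probe sets. It was the only 1 of the 22 tested probe sets with an unadjusted p under 0.05 in LQ against Ex4, where 4.10% of all tested probe sets had one, and none of the 22 passed, where 0.00610% did. The last MBTPS2 probe set was too dim to be tested.

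Of the 10 representatives, MBTPS2 and EIF2AK3 lay above all WT arrays and MBTPS1 and CREB3L1 below all of them on each of the 3 Ex4 arrays. That is 2 of 10 above, where 9.07% of all genes were, and 2 of 10 below, where 14.9% were. CREB3L1 was over the filter on dim signals in LQ and WT but not in Ex4, so nothing is read from its place. In LQ this held for MBTPS2 above (15.7% of all genes) and MBTPS1 below (23.2%). In all 6 mutant arrays it held for the same 2 proteases, with backgrounds of 6.79% above and 11.6% below.

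CREB3, also called LUMAN, is a membrane-bound factor cut by the same proteases. Its only probe set gave 3488.2, 3382.8 and 3796.0 in Ex4 and 3422.9, 4026.3 and 4142.8 in LQ, against 2880.3, 5449.1 and 5075.2 in WT. WT replicate 1 was below all mutant arrays, and WT replicates 2 and 3 were above all of them. On the log2 scale it differed by -0.28 ± 0.23 in Ex4 (limma adjusted p = 0.476) and -0.16 ± 0.23 in LQ (adjusted p = 0.673), and without WT replicate 1 CREB3 passed at -0.56 in Ex4 (adjusted p = 0.04997) and at -0.51 with both mutants together (adjusted p = 0.0366). Median centring turned both values, to 0.21 and 0.42.

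CREB3L1, also called OASIS, drives collagen and secretory genes in bone and fibroblasts. Its representative gave 276.6, 91.0 and 224.4 in Ex4 and 318.4, 479.9 and 186.8 in LQ, against 650.1, 310.8 and 851.0 in WT. All Ex4 arrays were below all WT arrays and below their own array medians, and LQ overlapped WT. Its log2 change was -1.55 ± 0.55 in Ex4 (limma adjusted p = 0.125) and -0.83 ± 0.55 in LQ (adjusted p = 0.338). The second CREB3L1 probe set had -1.39 in Ex4 (adjusted p = 0.229) and -1.71 in LQ (adjusted p = 0.126). The changes of its representative were the most negative of the 10, and at such low signals their size is not measured. The representative was over the filter in LQ and WT but not in Ex4, and the second probe set in WT alone.

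CREB3L2, also called BBF2H7, drives secretory genes in cartilage. Its representative was the steadiest of the CREB3 family, at 4127.4, 4447.4 and 4117.5 in Ex4 and 4439.6, 4017.4 and 4182.6 in LQ, against 4541.3, 3442.1 and 3740.7 in WT. The mutant arrays all lay within the WT range. Its log2 change was 0.12 ± 0.17 in each mutant (limma adjusted p = 0.673 in Ex4 and 0.667 in LQ), and with the mean of its 3 probe sets it was -0.45 in Ex4 and -0.50 in LQ. After median centring CREB3L2 passed in LQ, at 0.70 (adjusted p = 0.0338), and with both mutants together, at 0.66 (adjusted p = 0.0214). Its other probe sets were dimmer. On the dimmest all 6 mutant arrays, at 239.5 to 336.3 in Ex4 and 314.0 to 402.5 in LQ, were below the WT arrays at 454.8 to 567.7. Its log2 change was -0.83 in Ex4 (adjusted p = 0.187) and -0.53 in LQ (adjusted p = 0.356). On the next, where Ex4 replicate 1 was the highest of the 9 arrays, it was -0.63 in Ex4 (adjusted p = 0.369) and -1.10 in LQ (adjusted p = 0.115).

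**Figure D3:**
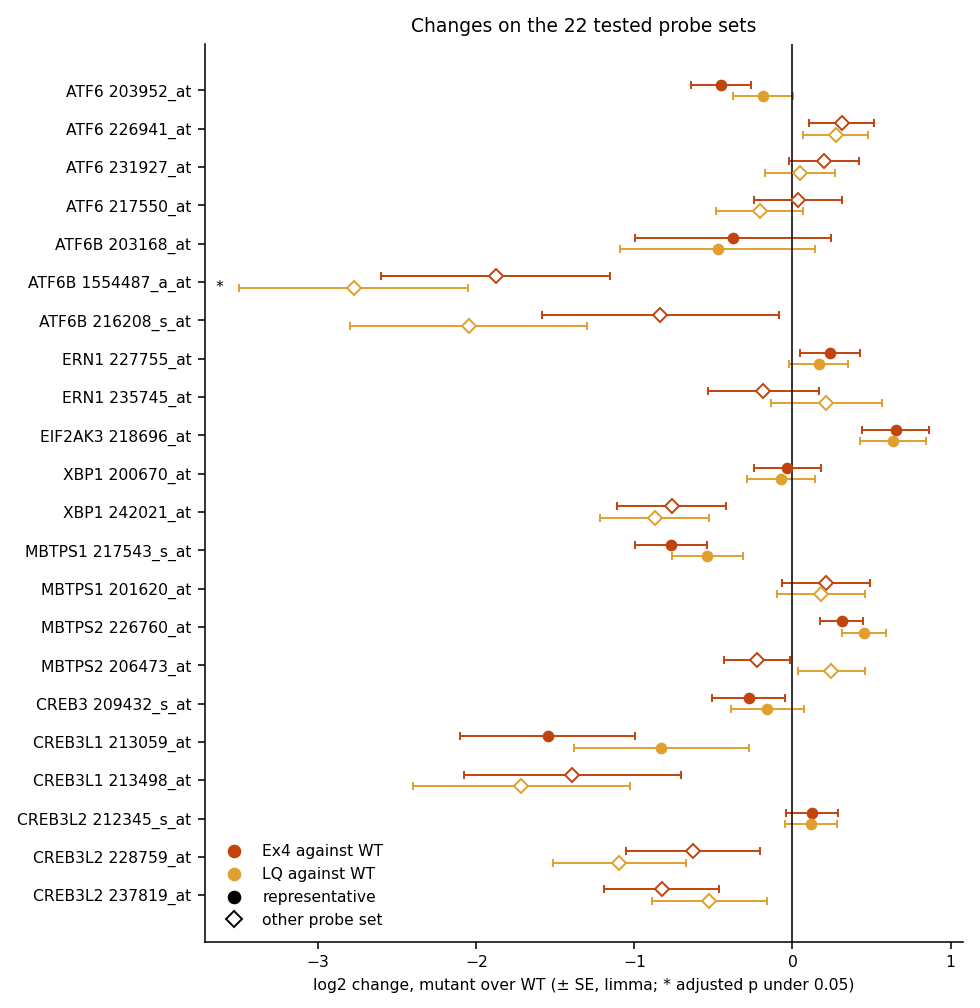
Log2 change of all 22 tested probe sets of the 10 genes for Ex4 against WT and LQ against WT, with error bars of 1 SE from limma (filled circles are representatives, open diamonds are other probe sets, and the asterisk marks an adjusted p under 0.05). The longest bars belong to the dim probe sets of ATF6B and CREB3L1, and the asterisk to the second ATF6B probe set in LQ. Probe sets of ATF6, MBTPS1 and CREB3L2 lie on both sides of 0 in each mutant, and those of ERN1 and MBTPS2 in Ex4.

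Probe sets of 1 gene often disagreed. Of the 8 genes with several tested probe sets, 5 had changes of both signs in Ex4 and 3 had them in LQ. Of the 22 tested probe sets, 18 had a mean over the filter in all 3 groups, 2 in WT and 1 mutant, and 2, of ATF6B and CREB3L1, in WT alone, so the counts below describe the probe sets tested and support nothing. Among the 22, 14 were negative in Ex4 and 13 in LQ. In Ex4 none of the 22 passed, where 0.0122% of all tested probe sets did. At an unadjusted p under 0.05 there were 8 of 22 in Ex4, against 24.9% of all tested, and 8 of 22 in LQ, against 28.9%. With both mutants together 1 of 22 passed higher and 2 lower, the second ATF6B probe set among them, where 4.89% of all tested passed higher, 6.77% lower and 11.7% in either direction. All LQ arrays lay above all WT arrays for 2 of the 22 and below them for 6, against 13.1% and 24.2% of all tested. All 6 mutant arrays lay above WT for 1 of the 22 and below it for 4, against 5.46% and 11.5% of all tested.

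Between the mutants, the representatives of all 10 genes overlapped for LQ against Ex4, where 5.91% of all genes lay wholly higher in LQ and 6.47% wholly lower. Of the 22 tested probe sets none lay wholly lower in LQ, against 6.34% of all tested. The largest log2 difference was that of CREB3L1, at 0.72, on a dim signal, and the differences of the others ran from -0.10 to 0.26. The 95% interval of the LQ against Ex4 difference was -0.26 to 0.72 for MBTPS1 and -0.16 to 0.44 for MBTPS2. For MBTPS1 this interval reaches the size of the EIF2AK3 difference from WT.

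The relatives of the sensors were read from a list of 11 genes, 10 of them tested. This list and those below were chosen with earlier results of these data known. Their counts beside the shares of all genes are therefore a description and no independent support. CREBZF, a factor that binds CREB3, rose in LQ, with 5751.6, 5347.5 and 5264.9 in LQ, against 4350.3, 2852.6 and 2607.8 in WT (log2 change 0.77, limma adjusted p = 0.0447), and it was the only gene of the list that passed there, where 3.69% of all genes passed higher and 3.63% lower. No WT array reached the LQ arrays. ERN2, the relative of IRE1 known from mucous epithelium, had a log2 change of -1.48 in Ex4 (adjusted p = 0.0927) and -1.41 in LQ (adjusted p = 0.0671), and it fell with both mutants together (-1.45, adjusted p = 0.0359). EIF2AK2, the eIF2 kinase PKR that answers to double-stranded RNA, had 0.61 in Ex4 (adjusted p = 0.125).

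Regulators and partners of the sensors were a list of 30 genes, 26 of them tested. In LQ 4 of the 26 rose and none fell, against 3.69% of all genes called higher and 3.63% called lower. They were HSPA5, its cochaperone DNAJB9, which also holds IRE1 inactive, DNAJC3, an inhibitor of PERK, and BAK1, a pore protein of apoptosis that binds IRE1. DNAJB9 had a log2 change of 0.94 in Ex4 (limma adjusted p = 0.0769) and 1.01 in LQ (adjusted p = 0.0296). With both mutants together it had 0.98 (adjusted p = 0.0207). BAK1 had 1982.5, 1980.7 and 1839.6 in Ex4 and 3449.9, 3541.3 and 3019.2 in LQ, against 954.5, 1865.7 and 1834.9 in WT. The LQ arrays stood above all others there (log2 change 1.16 against WT, adjusted p = 0.0303). PPP1R15B, which directs the phosphatase of eIF2, passed with both mutants together (0.47, adjusted p = 0.0406). In Ex4 none of the 26 passed, and the median of the list was -0.02 in Ex4 and 0.02 in LQ.

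The targets of the branches were read from further lists, which share genes, so the counts per list overlap. HSPA5, an ATF6 target, and DNAJB9 and DNAJC3, targets of IRE1 and XBP1, were also counted among the regulators above. HERPUD1 was counted both as an ATF6 target and as a CREB3 family target. Of 15 ATF6 targets, 6 rose and 1 fell in LQ, against 3.69% of all genes called higher and 3.63% called lower, and their median log2 change was 0.31 in Ex4 and 0.27 in LQ. HERPUD1, which serves the degradation of misfolded ER proteins, had 0.95 in Ex4 (limma adjusted p = 0.0763) and 1.26 in LQ (adjusted p = 0.0146). HSP90B1, the ER form of HSP90, had 0.94 in Ex4 (adjusted p = 0.0769) and 1.08 in LQ (adjusted p = 0.0264). With both mutants together HERPUD1 had 1.11 (adjusted p = 0.0144) and HSP90B1 had 1.01 (adjusted p = 0.0202). CALR, the calcium-binding chaperone calreticulin, was the 1 that fell in LQ (-0.97, adjusted p = 0.0332). Of 19 tested targets of IRE1 and XBP1, 2 rose and 0 fell in LQ, DNAJB9 and DNAJC3, against the same shares of all genes, with a median of 0.19 in Ex4 and 0.05 in LQ.

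Of 20 targets of PERK and ATF4, 2 rose and 0 fell in LQ, against 3.69% of all genes called higher and 3.63% called lower, and their median log2 change was -0.01 in Ex4 and 0.23 in LQ. ATF3, a stress-induced repressor, had 58539.1, 50185.0 and 59845.4 in Ex4 and 69932.2, 68504.3 and 68679.1 in LQ, against 30349.7, 43960.8 and 38325.4 in WT. All mutant arrays were above all WT arrays, with a log2 change of 0.59 in Ex4 (limma adjusted p = 0.0814) and 0.89 in LQ (adjusted p = 0.0200). With both mutants together ATF3 had 0.74 (adjusted p = 0.0190). CEBPG, a partner of ATF4, had 0.78 in LQ (adjusted p = 0.0264), and CTH, an enzyme of cysteine synthesis, had 0.79 in Ex4 (adjusted p = 0.106). Among 8 tested transcripts known to be cleaved by IRE1, 1 fell in LQ, against 3.63% of all genes, and 0 rose, with a median of -0.21 in Ex4 and -0.40 in LQ. COL6A1, a collagen chain, had -1.05 in Ex4 (adjusted p = 0.0763) and -1.25 in LQ (adjusted p = 0.0200). BLOC1S1, a much used indicator of this cleavage, had -0.59 in Ex4 (adjusted p = 0.132) and -0.75 in LQ (adjusted p = 0.0575). With both mutants together COL6A1 had -1.15 (adjusted p = 0.0169) and BLOC1S1 had -0.67 (adjusted p = 0.0427), and both passed. Of 14 tested CREB3 family targets and coat proteins of ER export, 2 rose and 1 fell in LQ, against the same 3.69% and 3.63% of all genes, with a median of 0.09 in Ex4 and 0.07 in LQ. The 1 that fell was COL1A1, a target of CREB3L1, at -0.96 (adjusted p = 0.0284), and ARFGAP3, a regulator of Golgi coats, had 1.40 in Ex4 (adjusted p = 0.0769).

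Across the lists, with each gene counted once, none of 99 tested genes passed limma's test in Ex4, as 0% of all genes did. In Ex4 32 of the 99 had an unadjusted p under 0.05, against 27.2% of all genes. In LQ 16 of the 99 passed in either direction, against 7.32% of all genes. With both mutants together 22 passed, against 12.9%. The counts in each mutant changed when 1 array was left out. So did the counts of all tested probe sets that passed, which are given in the closing section. Without any 1 of the LQ arrays, or without WT replicate 2 or 3, no ATF6 target passed in LQ, and without Ex4 replicate 1 or WT replicate 1 there were 8. Without Ex4 replicate 1, 6 ATF6 targets passed in Ex4, and without WT replicate 1 there were 5. Across the other lists the LQ count was 0 without any 1 of the LQ arrays.

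**Figure D4:**
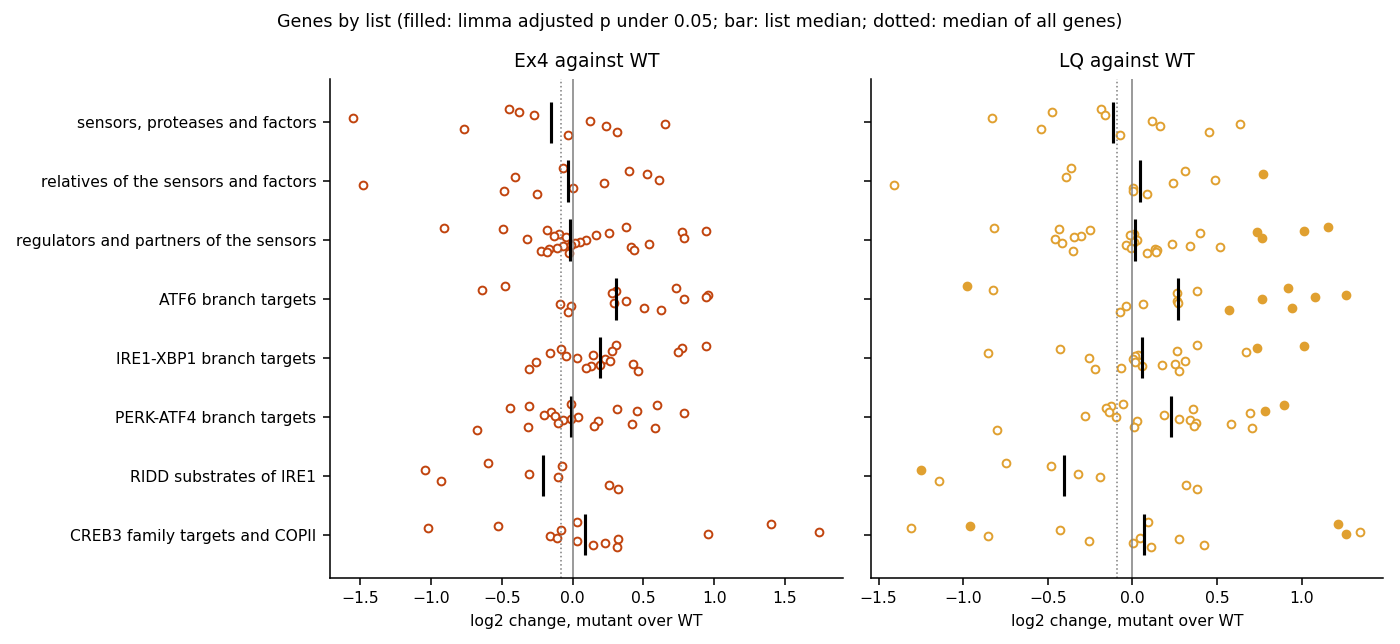
Log2 change of each tested gene in the pathway lists and of the 10 genes described here, for Ex4 against WT and LQ against WT (points are genes, bars are list medians, the dotted line is the median of all genes, and filled points passed limma's test). The medians of the ATF6 targets, 0.31 in Ex4 and 0.27 in LQ, lie to the right of those of the 10 genes, -0.15 and -0.12.

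Each representative was also compared with all other genes by the Pearson correlation of log2 signal over the 9 arrays, as a description only, since these arrays share groups and scaling and the best of 14017 values is always high. EIF2AK3 was most like TRIM44 (0.988), MBTPS1 like ACACB (0.987) and MBTPS2 like STK35 (0.992). XBP1 was most like NDUFB10 (0.980), CREB3 like GSPT1 (0.978) and CREB3L2 like TCEAL9 (0.971). The dimmer CREB3L1 and ATF6B had their best values with TLX3 (0.955) and POC1B (0.928), and ATF6 and ERN1 with DMRTA2 (0.938) and C21orf91-OT1 (0.908). Among the 10 genes themselves, CREB3 and CREB3L2 ran most against each other (-0.943), followed by the proteases MBTPS1 and MBTPS2 (-0.812). EIF2AK3 ran with CREB3L2 (0.849) and MBTPS2 (0.764) and against CREB3 (-0.788).

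**Figure D5:**
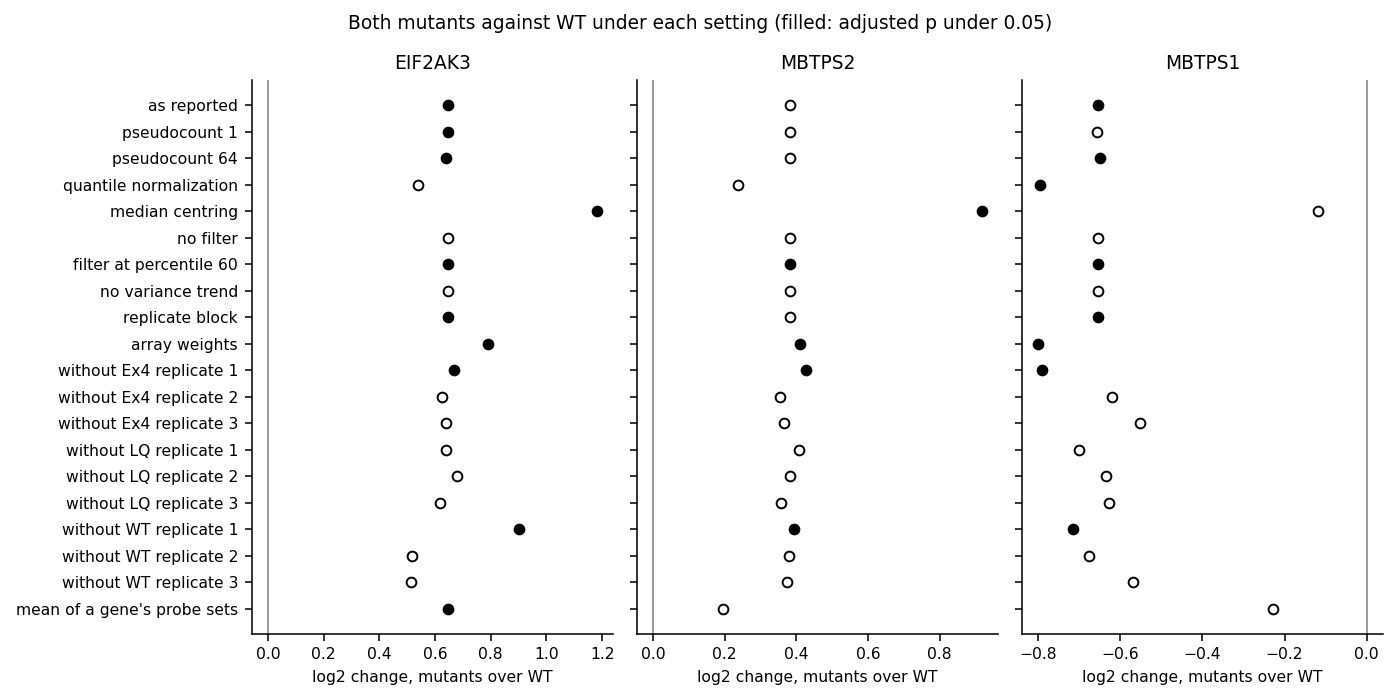
Log2 change of EIF2AK3, MBTPS2 and MBTPS1 with both mutants together against WT, 1 row for each processing setting (filled points have a limma adjusted p under 0.05). EIF2AK3 and MBTPS2 stay above 0 and MBTPS1 below 0 in all settings shown, while each passes the test in some settings and misses it in others.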

How the data were processed

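RNA of HEK293 cells in 3 transfection groups of 3 arrays was measured on Affymetrix arrays with biotin-labelled RNA, per the labels' protocols. The authors deposited a linear intensity for each probe set on each array. The submitters' processing notes name MAS5, with no version. MAS5 combines matched and mismatched probes, so dim signals are noisy, and it scales arrays to a common mean. The deposited scaling was kept: the trimmed mean lay between 1493.3 and 1494.9 on all arrays. The number of arrays limits the precision, and detection calls were not used here.

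Of 54675 probe sets, 62 controls were left out. Of the others, 41091 carried 1 gene symbol in the platform annotation, 1801 several and 11721 none, and 2 that name a member with another gene were not used. A RefSeq table was used to bring symbols up to date by gene identifier. Intensities were used as log2(value + 16), a scale on which changes of dim probe sets come out too small, and probe sets with a mean under percentile 40 (7.89) were left out. The 32768 remaining probe sets, which represent 14018 genes, were fitted on the 9 arrays with limma 3.58.1 in R 4.3.3, using moderated variances with a trend on the mean and no term for the replicate number. Each p-value is two-sided and was adjusted by Benjamini-Hochberg over all tested probe sets of its comparison, with a threshold of 0.05. Shares of genes count the representative probe sets that passed. The script was tested on simulated data with the spread of these arrays, in which few probe sets were changed, in both mutants alike. Of the 2-fold changes, 21% passed in Ex4 against WT, 19% in LQ against WT and 29% with both mutants together. Of the 4-fold changes, 69%, 67% and 75% passed. The simulated noise was independent between probe sets, without the array-wide differences described above. In the data 24.9% of tested probe sets had an unadjusted limma p under 0.05 in Ex4 and 28.9% in LQ. The recovered shares therefore check the script and do not give the power of the comparisons here.

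Named genes were all 10 members and, from each pathway list and for each mutant, the 2 genes with the smallest adjusted p. Other list genes that passed were named after their values were seen. The members and lists were chosen with earlier results of these data known. Other settings tried were quantile normalization, median centring, pseudocounts of 1 and 64, no filter, percentile 60 as the filter, no trend, the replicate block, array weights, only the arrays compared, averaging the probe sets of a gene, and each array left out in turn. Promoter windows came from RefSeq (GRCh38.p14). No genome or protein table was used here.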

Additional observations from a re-analysis of the deposited data

How the results depend on the processing

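Under the alternatives, 680 of 782 values of the 40 member changes kept their direction and their side of the threshold, 28 came to pass, 22 no longer passed and 52 changed sign, none of those passing. The cause was not tested. In Ex4 against WT the count of probe sets was 4, with 10 after quantile normalization, 5106 after median centring, 5287 with array weights, 2 with only the arrays compared and 2 to 4433 without 1 array. Members there went to 3 with centring, 2 with weights and 0 to 2 without 1 array. In LQ against WT the count was 2231, with 1154 after quantile normalization, 8452 after centring, 442 without the variance trend, 8580 with weights, 4035 with only the arrays compared and 8 to 4993 without 1 array. Members there were 4 with centring, 3 with weights, 1 with only the arrays compared and 0 to 2 without 1 array. LQ against Ex4 gave 2 probe sets, with 1 without the trend, 3 with array weights, 3 without Ex4 replicate 1 and 2 without any 1 of the other arrays. For both mutants together the count was 3818, with 2413 after quantile normalization, 9736 after centring, 1520 without the trend, 9036 with weights and 25 to 7229 without 1 array. Members there were 1 with a pseudocount of 1 and 1 with quantile normalization, 4 with centring, 0 with no filter, 0 without the trend and 0 to 4 without 1 array. With the replicate block the counts of probe sets were 4, 2215, 2 and 4004, and those of members 0, 0, 0 and 2. The deviations of same-numbered arrays had correlations of -0.083 to 0.191 over 9 pairs, with a median of 0.074, and 4 were over 0.1. For the 18 pairs with unlike numbers they were -0.229 to 0.164, with a median of -0.032. Of 18 best matches 9 had the same number. Whether the number pairs arrays was not tested.

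Changes of sign in Ex4 were 0.0375 (centring) and 0.0237 (mean of probe sets) for ATF6, 0.12 (quantile), 0.11 (centring) and 0.0468 (weights) for ATF6B, 0.46 for XBP1 and 0.21 for CREB3 (centring), and -0.45 for CREB3L2 (mean). In LQ they were 0.39 for ATF6, 0.51 for XBP1, 0.0431 for MBTPS1 and 0.42 for CREB3 (centring), 0.12, 0.11 and 0.0210 for ATF6B (quantile, centring, weights) and -0.50 for CREB3L2 (mean). In LQ against Ex4 they were -0.0425 for ATF6 and 0.16 for ERN1 (mean), 0.0035 for ATF6B (quantile), and 0.0212 for ERN1, 0.0787 for EIF2AK3, 0.0522 for XBP1 and 0.0875 for CREB3L2 (centring). For both mutants together they were 0.22 and 0.0024 for ATF6 (centring, mean), 0.12, 0.11 and 0.0339 for ATF6B, 0.48 for XBP1 and 0.32 for CREB3 (centring), and -0.47 for CREB3L2 (mean). Without 1 array, values of both signs were seen for ATF6B in Ex4 (-0.58 to 0.0165), XBP1 in Ex4 (-0.24 to 0.14), in LQ (-0.28 to 0.0425) and in both together (-0.26 to 0.0632), CREB3 in LQ (-0.45 to 0.00999), and in LQ against Ex4 for ATF6B (-0.70 to 0.20), EIF2AK3 (-0.0661 to 0.0505), XBP1 (-0.21 to 0.10) and CREB3L2 (-0.0445 to 0.0301). The filter at percentile 60 left ATF6B and CREB3L1 untested. Signals near or under the array median, as for ATF6B and CREB3L1, limit the size of a change.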
